A study of Homo sapiens with 4 samples.

Results

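Cholesterol metabolism was followed through 31 genes, chosen by symbol for their place in sterol metabolism, out of 17185 named genes on the array. They comprised 18 enzymes of cholesterol synthesis, 5 genes of the SREBP control system, 4 of sterol transport and storage, 2 exporters and both liver X receptors. All 31 were measured, 30 of them by 1 probe set and LSS by 2. The cells were KYSE410, an established line from a human oesophageal squamous cell carcinoma, kept in medium with fetal bovine serum. They were given TNFα or IL1β, both inflammatory cytokines, LPS, a bacterial cell wall component, or PBS, the solvent control, for 24 h. The aim stated for the series was to find messenger RNAs that react to inflammatory stimuli. The sources used here give no doses, and a single cell line stood for the tissue.

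With 1 array per condition, differences have no replicate error and were not tested, and precision is limited by how few arrays there are. A call (higher or lower) needed a change of at least 2-fold between 2 arrays, with the brighter of them at or above a floor of 260.5 (8.02 on the log2 scale), the median level of named genes. Values are RMA intensities, in which the arrays' distributions had been equalised, so a difference is relative to the bulk of genes. Random-sequence control probes read 54.1 to 56.4 on the 4 arrays, and a value under 2 times that reading is described as near background. Levels of different genes come from different probes and do not rank their RNA amounts. Summed marker intensities are therefore weighted towards the brightest probe sets. In bulk RNA, fewer cells of a type and less RNA per cell cannot be told apart. Of the 16 squamous epithelial markers, 15 reached the floor with TNFα, 15 with IL1β, 16 with LPS and 16 with PBS.

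Cholesterol is built from acetyl-CoA through mevalonate, squalene and lanosterol, and the same route supplies isoprenoids for protein prenylation and ubiquinone. The SREBP transcription factors wait in the endoplasmic reticulum bound to SCAP. When sterols are plentiful, INSIG proteins hold SCAP there, and when sterols are scarce SCAP escorts SREBP to the Golgi for cleavage, after which the released factor switches on the genes of synthesis and INSIG1 itself. Liver X receptors sense oxidised sterols and switch on the exporters ABCA1 and ABCG1. In stratified squamous epithelium, cholesterol is also a barrier lipid of the outer layers.

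With LPS against PBS, HMGCS1, LSS and INSIG1 were lower and MSMO1, NPC2 and ABCG1 were higher, 6 of the 28 members at the floor, where 16.2% of all named genes at the floor were called. With TNFα against PBS the only member called was SC5D, lower, 1 of 26 at the floor, against 6.76% of all genes. With IL1β against PBS it was SC5D alone, lower, 1 of 26, against 6.7% of all genes. Both SC5D calls share the PBS array. The remaining 24 members were called in no comparison with PBS. Between LPS and TNFα 9 of 27 members were called, against 17% of all genes, and between LPS and IL1β 7 of 27, against 18%. Between TNFα and IL1β 0 of 24 members were called, against 3.6% of all genes.

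**Figure D1:**
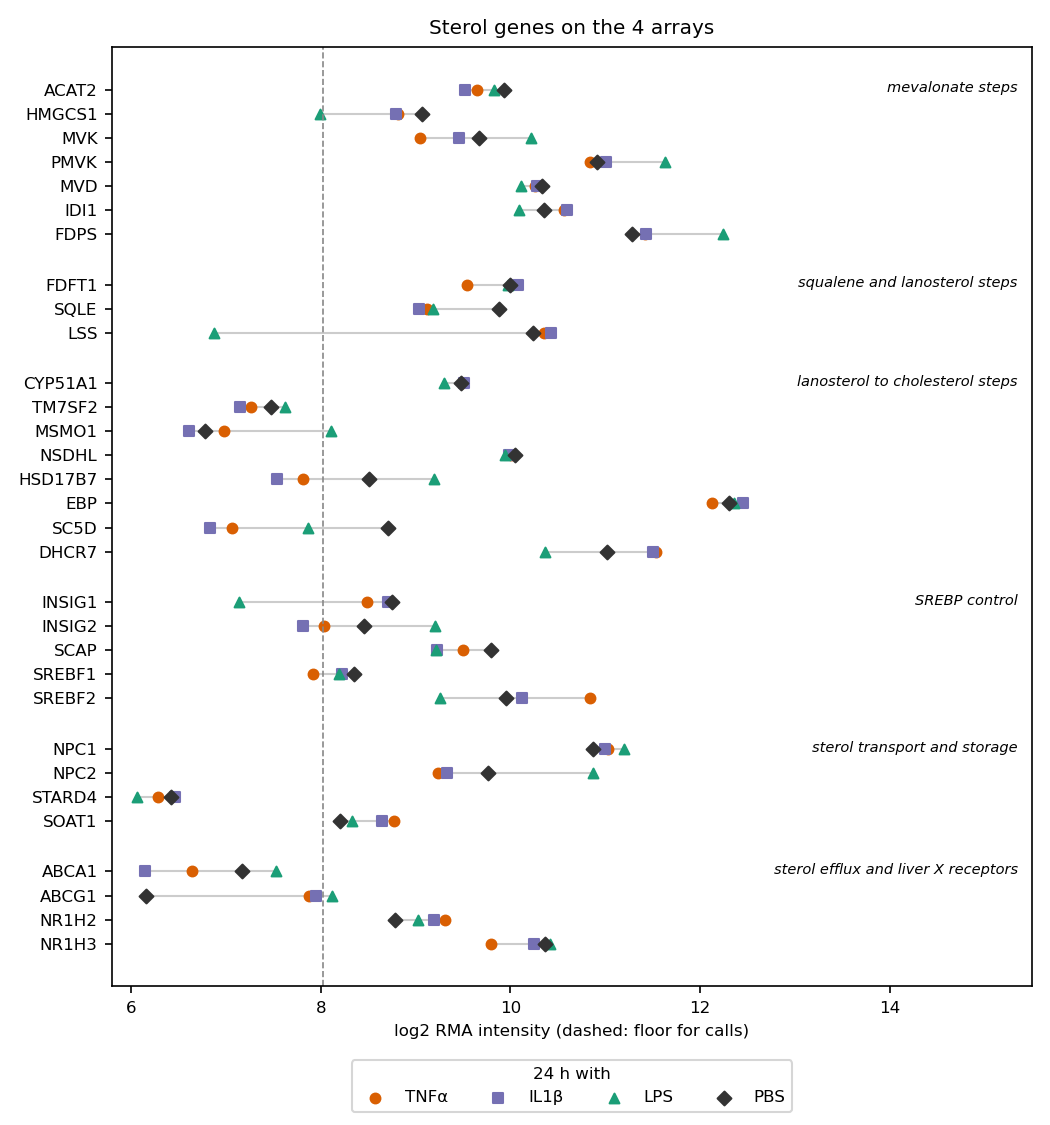
Log2 RMA intensity of the 31 sterol genes (rows, by role) on the arrays of cells given TNFα, IL1β, LPS or PBS for 24 h, 1 array each. The dashed line is the floor of 8.02. LSS has the widest spread, with LPS far left of the other arrays, and NSDHL, CYP51A1 and MVD have points that nearly coincide.

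The enzymes that make mevalonate and its activated products were at the floor on every array, except HMGCS1 with LPS. HMGCS1, the cytosolic HMG-CoA synthase, had intensities of 451 with TNFα, 443 with IL1β and 254 with LPS, against 539 with PBS. The LPS array was the lowest and just under the floor, and the cytokine arrays lay slightly below PBS. HMGCS1 was thus 2.12-fold lower with LPS (log2 difference -1.08), only just past the size rule. With an offset of 50.9 added before the logarithm its log2 difference was -0.95, short of that rule.

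The next kinases of the pathway ran the other way on the LPS array. MVK, mevalonate kinase, had intensities of 530.0 with TNFα, 704 with IL1β, 1195 with LPS and 814 with PBS. PMVK, phosphomevalonate kinase, had 1836 with TNFα, 2055 with IL1β, 3162 with LPS and 1926 with PBS. FDPS, farnesyl diphosphate synthase, had 2744 with TNFα, 2765 with IL1β, 4854 with LPS and 2496 with PBS. In all 3 genes LPS was the highest array, but none was called against PBS: the log2 differences of LPS from PBS were 0.55 for MVK, 0.71 for PMVK and 0.96 for FDPS. FDPS has processed pseudogenes in the human genome, and probe sequences were not used here to separate their signal.

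ACAT2, the cytosolic thiolase that starts the route, MVD, which decarboxylates mevalonate diphosphate, and IDI1, the isomerase that follows it, differed little. Their log2 differences from PBS lay between -0.42 and 0.25 over the 3 stimuli. Of the 7 mevalonate genes 1 was lower with LPS against PBS (7.42% of all genes) and 0 were higher (8.83%), with a median log2 difference of -0.11.

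LSS, lanosterol synthase, which folds squalene epoxide into the first sterol ring system, showed the largest difference of all members. Its brighter probe set had intensities of 1309 with TNFα, 1382 with IL1β and 117 with LPS, against 1204 with PBS. The LPS array stood alone, just above the limit for near background, while the other arrays were alike. This is 10.3-fold lower than PBS (log2 difference -3.36), the rank 11 lower difference among the 9675 genes that reached the floor in this comparison. The second LSS probe set had 503 with TNFα, 607 with IL1β and 297 with LPS, against 549 with PBS. It was also lowest with LPS, but by a log2 difference of -0.89 from PBS, which is not called. Both sets thus give the same direction with very different sizes, and their mean gave -2.12. Over 700 genes with a second probe set at the floor, the differences of the 2 sets from PBS with LPS disagreed with an SD of 0.76.

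SQLE, squalene epoxidase, a rate-limiting enzyme of the later pathway, had 558 with TNFα, 523 with IL1β, 582 with LPS and 945 with PBS. All stimulated arrays lay below PBS by similar amounts, with log2 differences of -0.76, -0.85 and -0.70, none of them called. These 3 values share the PBS array. FDFT1, squalene synthase, the first step committed to sterols, had 744 with TNFα and 1008 to 1084 on the other arrays.

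Among the enzymes that turn lanosterol into cholesterol, MSMO1 and SC5D stood out. MSMO1, the sterol C4-methyl oxidase, had intensities of 126 with TNFα, 98.0 with IL1β and 276 with LPS, against 109.9 with PBS. Only the LPS array reached the floor, IL1β was near background, and TNFα and PBS were just above that limit. MSMO1 was 2.51-fold higher with LPS (log2 difference 1.33). SC5D, the sterol C5-desaturase of the last steps, had 134 with TNFα, 114 with IL1β and 233 with LPS, against 420.0 with PBS. PBS was the only array at the floor, both cytokine arrays were just above the limit for near background, and LPS was in between. SC5D was 3.14-fold lower with TNFα and 3.68-fold lower with IL1β, and its LPS difference of -0.85 on the log2 scale was not called. All of these SC5D differences rest on the same PBS reading.

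HSD17B7 and DHCR7 separated the LPS array from the cytokine arrays rather than from PBS. HSD17B7, the sterol 3-keto reductase, had intensities of 224 with TNFα, 186 with IL1β, 588 with LPS and 365 with PBS. LPS was highest and both cytokine arrays lowest. HSD17B7 was 2.62-fold higher with LPS than with TNFα and 3.17-fold higher than with IL1β; a closely similar pseudogene could share its signal. DHCR7, the reductase that completes cholesterol, had 2959 with TNFα, 2898 with IL1β, 1322 with LPS and 2073 with PBS. DHCR7 was 2.24-fold lower with LPS than with TNFα and 2.19-fold lower than with IL1β. CYP51A1, the lanosterol demethylase, NSDHL, which removes the C4 carboxyl groups, and EBP, the sterol isomerase, had log2 differences from PBS between -0.18 and 0.14 with every stimulus. TM7SF2, a sterol reductase, stayed below the floor on all arrays, at 142 to 197.

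Of the 5 SREBP control genes, all at the floor, 1 was lower with LPS against PBS and 0 were higher, where 7.42% and 8.83% of all genes at the floor were, and that gene was INSIG1. INSIG1, the sterol-dependent anchor and itself an SREBP target, had intensities of 359 with TNFα, 418 with IL1β and 141 with LPS, against 430.4 with PBS. The LPS array was the low one and the other arrays were close together. INSIG1 was 3.05-fold lower with LPS than with PBS (log2 difference -1.61), 2.54-fold lower than with TNFα and 2.96-fold lower than with IL1β. INSIG2, its homologue, had 263 with TNFα, 225 with IL1β, 590.4 with LPS and 352 with PBS. Here LPS was the highest array and the cytokine arrays the lowest. INSIG2 was 2.24-fold higher with LPS than with TNFα and 2.62-fold higher than with IL1β, while its log2 difference of 0.75 from PBS was not called.

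SREBF2, the SREBP gene most tied to cholesterol synthesis, had intensities of 1831 with TNFα, 1113 with IL1β, 612 with LPS and 990.3 with PBS. TNFα was highest and LPS lowest, with IL1β and PBS in between. SREBF2 was 2.99-fold lower with LPS than with TNFα, and neither differed from PBS by the size rule (log2 differences 0.89 with TNFα and -0.70 with LPS). SREBF1, which drives fatty acid genes as well, had 242 with TNFα, 300.1 with IL1β, 292 with LPS and 327 with PBS, all close to the floor. SCAP, the escort protein, had 725 with TNFα, 599 with IL1β, 593 with LPS and 890.4 with PBS, highest with PBS. Neither SREBF1 nor SCAP was called in any comparison.

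**Figure D2:**
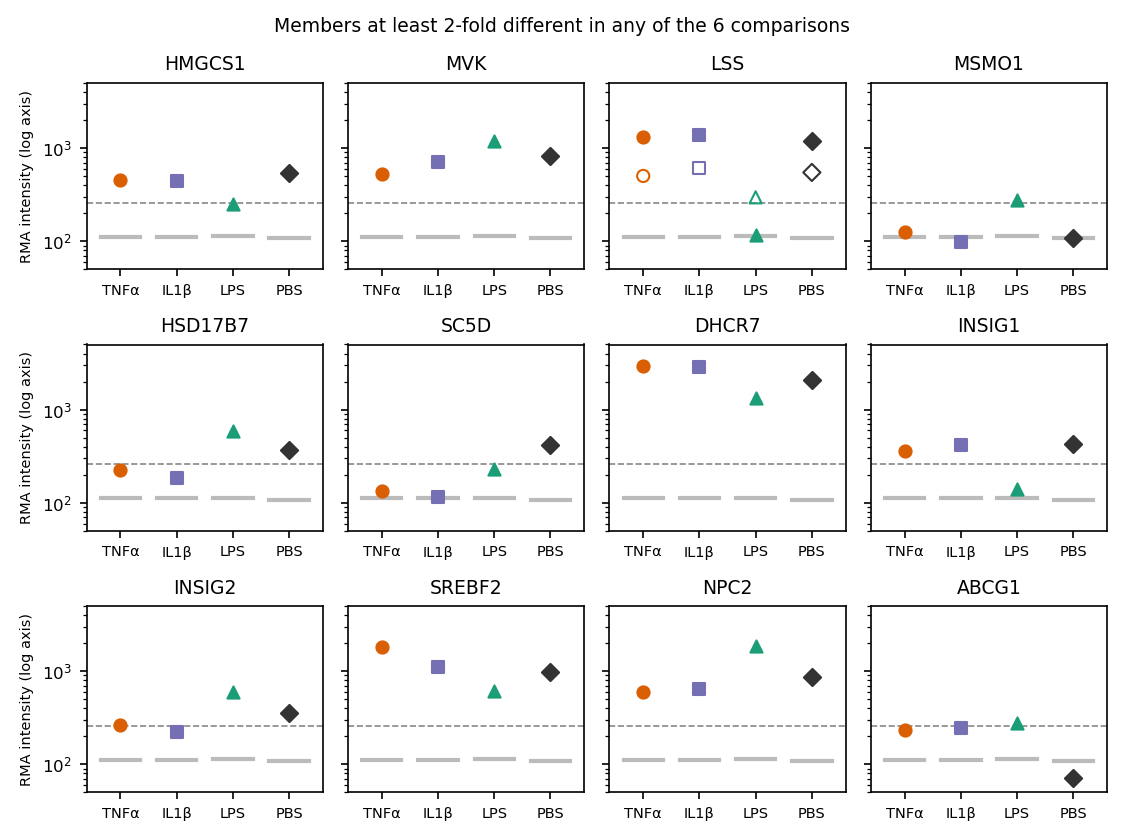
RMA intensity (log axis) with TNFα, IL1β, LPS and PBS for the 12 members called in any of the 6 comparisons, 1 array per point. Open symbols are the second LSS probe set, the dashed line is the floor (260.5) and grey bars are 2 times the random control reading of each array. The LPS point is the lowest for HMGCS1, LSS, DHCR7, INSIG1 and SREBF2 and the highest for MVK, MSMO1, HSD17B7, INSIG2, NPC2 and ABCG1.

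Promoter sequences are shown for the 5 of the 6 members called with LPS against PBS that have a RefSeq window, to let the opposite directions be read beside the DNA, and for SREBF2. RefSeq windows of 250 bases before to 50 after a gene's start (GRCh38.p14) were found for 27 of the 31 members. The 250 bases before the start (of the first window, where a gene has several) are printed on the gene's strand, 5′ to 3′. Capitals mark the NF-Y box CCAAT on either strand and the sterol regulatory element TCACNCCAC.
LSS (chr21:46228775-46229024, - strand): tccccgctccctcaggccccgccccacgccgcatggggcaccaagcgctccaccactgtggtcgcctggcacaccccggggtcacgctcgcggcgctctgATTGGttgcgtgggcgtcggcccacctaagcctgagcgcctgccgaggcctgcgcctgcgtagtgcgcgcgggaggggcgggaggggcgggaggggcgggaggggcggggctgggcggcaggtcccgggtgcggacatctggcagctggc
INSIG1 (chr7:155297628-155297877, + strand): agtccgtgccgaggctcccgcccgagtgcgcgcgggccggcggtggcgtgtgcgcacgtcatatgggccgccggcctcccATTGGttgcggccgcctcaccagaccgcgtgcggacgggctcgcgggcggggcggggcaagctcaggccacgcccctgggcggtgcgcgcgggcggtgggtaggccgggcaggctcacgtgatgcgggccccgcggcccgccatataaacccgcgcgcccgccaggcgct
HMGCS1 (chr5:43313413-43313662, - strand): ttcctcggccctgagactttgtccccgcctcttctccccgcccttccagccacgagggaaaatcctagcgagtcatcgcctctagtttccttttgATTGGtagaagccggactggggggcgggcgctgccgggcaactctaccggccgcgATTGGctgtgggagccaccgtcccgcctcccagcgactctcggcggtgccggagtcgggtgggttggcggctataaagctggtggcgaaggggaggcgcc
MSMO1 (chr4:165327419-165327668, + strand): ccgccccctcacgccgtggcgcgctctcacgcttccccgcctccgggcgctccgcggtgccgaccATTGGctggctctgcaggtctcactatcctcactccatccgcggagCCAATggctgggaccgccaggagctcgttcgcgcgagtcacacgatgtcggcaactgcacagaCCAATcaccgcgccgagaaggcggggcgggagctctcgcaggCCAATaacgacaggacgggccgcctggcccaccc
NPC2 (chr14:74493513-74493762, - strand): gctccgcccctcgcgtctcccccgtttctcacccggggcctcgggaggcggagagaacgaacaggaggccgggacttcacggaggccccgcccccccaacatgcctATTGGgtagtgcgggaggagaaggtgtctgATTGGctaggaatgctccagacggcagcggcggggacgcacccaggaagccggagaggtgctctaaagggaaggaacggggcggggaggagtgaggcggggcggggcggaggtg
SREBF2 (chr22:41832855-41833104, + strand): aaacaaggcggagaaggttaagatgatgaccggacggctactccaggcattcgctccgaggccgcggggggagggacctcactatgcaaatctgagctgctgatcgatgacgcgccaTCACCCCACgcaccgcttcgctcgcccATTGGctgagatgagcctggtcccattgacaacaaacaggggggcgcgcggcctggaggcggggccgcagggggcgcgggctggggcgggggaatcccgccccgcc
LSS and INSIG1, both lower with LPS, have 1 NF-Y box each in these 250 bases, and HMGCS1 has 2. MSMO1 and NPC2, both higher with LPS, have 4 and 2. SREBF2 holds the only exact sterol regulatory element found in a member's window, which 1.51% of 15843 protein-coding genes with a window also have. The NF-Y box was in a window of 19 of 27 members (70.4%) and of 42.1% of protein-coding genes. At least 2 boxes in a window were found in 12 of the 27 members and in 14.8% of protein-coding genes. The Sp1 box GGGCGG was in 26 of 27 members and in 64.3% of protein-coding genes. The E-box CACGTG was in 5 members (LSS, SC5D, INSIG1, SCAP and ABCA1) and in 10.9% of protein-coding genes. A direct repeat of AGGTCA spaced by 4 bases, the textbook element of liver X receptors, was in none of the 27 and in 0.0126% of protein-coding genes, and ABCG1 is among the members without a window. Some genes have several windows, and a gene was counted once if any window matched on either strand. Some NF-Y boxes overlap each other. Members higher and lower with LPS both carry NF-Y and Sp1 boxes, and a match is a description of letters, not a site.

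Among the transport genes, NPC2, the soluble lysosomal protein that hands cholesterol to NPC1, had intensities of 601 with TNFα, 644 with IL1β and 1873 with LPS, against 870.4 with PBS. LPS was clearly the highest array and the cytokines the lowest. NPC2 was 2.15-fold higher with LPS than with PBS, 3.12-fold higher than with TNFα and 2.91-fold higher than with IL1β. NPC1, its membrane partner, had 2097 with TNFα, 2040.4 with IL1β, 2349.7 with LPS and 1871 with PBS, a spread of 0.33 log2. SOAT1, which esterifies cholesterol for storage, had 437 with TNFα, 401 with IL1β, 322 with LPS and 296 with PBS, with log2 differences of 0.57, 0.44 and 0.13. STARD4, a cytosolic sterol carrier, was near background on every array, at 67.1 to 88.1.

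The exporters were dim. ABCG1, which passes cholesterol to lipoproteins, had intensities of 235 with TNFα, 248 with IL1β and 277 with LPS, against 71.3 with PBS. The PBS array was near background and the stimulated arrays were alike, with only LPS above the floor. Against 2 times the random control reading, ABCG1 was at least 2.56-fold higher with LPS, at least 2.17-fold with TNFα and at least 2.29-fold with IL1β. By the size rule only the LPS value is called, because the other arrays fell just under the floor, and no difference between the stimuli follows from that. All 3 values rest on the same low PBS reading. ABCA1, which loads cholesterol onto apolipoprotein, was below the floor on all arrays, at 99.8 with TNFα, 70.8 with IL1β, 184 with LPS and 144 with PBS.

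Both liver X receptor genes were expressed at the floor or above on all arrays. NR1H3, liver X receptor α, had 886 with TNFα, 1217 with IL1β, 1368 with LPS and 1323 with PBS, lowest with TNFα. NR1H2, liver X receptor β, had 633 with TNFα, 586 with IL1β, 520 with LPS and 441 with PBS, lowest with PBS. Their log2 differences from PBS ran from -0.58 to 0.52, and neither was called.

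Counted over the whole group, LPS against PBS gave 3 of 28 members at the floor higher, against 8.83% of all named genes at the floor, and 3 of 28 lower, against 7.42%. These shares are near the background, and the median log2 difference of the 31 members was -0.02, beside 0.02 for all named genes. With TNFα 0 of 26 members at the floor were higher (3.37% of all genes) and 1 was lower (3.4%). The median was -0.18 for members and -0.03 for all genes. With IL1β 0 of 26 were higher (3.13%) and 1 was lower (3.57%), with medians of -0.05 for members and -0.03 for all genes. Over the 3 stimuli the group medians lay between -0.18 and -0.02.

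**Figure D3:**
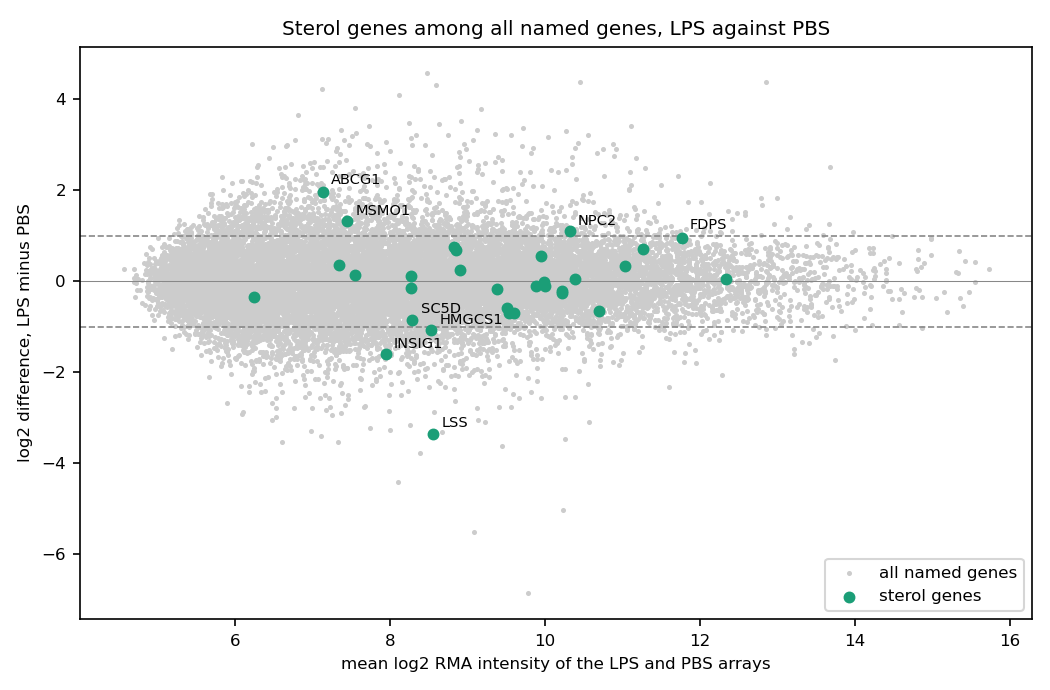
Log2 difference of LPS minus PBS (y axis) against the mean log2 RMA intensity of those arrays (x axis) for 17185 named genes (grey) and the 31 sterol genes (green), with dashed lines at 2-fold. LSS lies far below the bulk of genes at -3.36, INSIG1 and HMGCS1 under the lower line, and ABCG1, MSMO1 and NPC2 above the upper one.

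The stimuli were also compared with each other. With LPS against TNFα, 5 of 27 members at the floor were higher (9.93% of all genes), namely MVK, MSMO1, HSD17B7, INSIG2 and NPC2. Another 4 of 27 were lower (7.09%), namely LSS, DHCR7, INSIG1 and SREBF2. With LPS against IL1β, 4 of 27 were higher (10.5%), the same genes without MVK, and 3 were lower (7.45%), namely LSS, DHCR7 and INSIG1. Both comparisons use the same LPS array. TNFα against IL1β, a comparison that does not use the PBS array, gave 0 of 24 members higher (1.87%) and 0 lower (1.74%). Of those 24 members 22 differed by less than 0.5 log2 (91.7%, against 82.8% of all genes at the floor), the exceptions being SREBF2 at 0.72 and FDFT1 at -0.54.

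**Figure D4:**
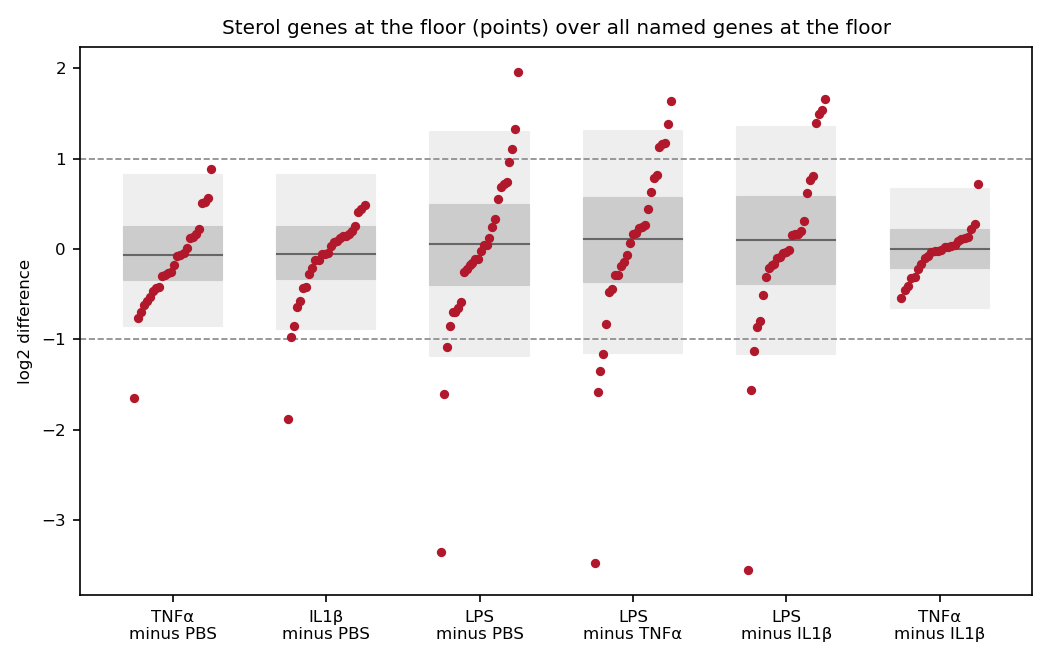
Log2 differences of the sterol genes at the floor (red points, ordered by value) in the 6 comparisons. Dark grey spans the middle 50% of all named genes at the floor, light grey the middle 90%, the grey line is their median and dashed lines mark 2-fold. Members spread widely where LPS is compared and narrowly for TNFα against IL1β, where none passes 2-fold.

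The LPS array read lowest for 11 of the 31 members and highest for 12; of the 17185 named genes it read lowest for 5328 and highest for 6049. Other transcripts moved on that array too. Of 19 leukocyte and myeloid markers 9 were at the floor with TNFα, 10 with IL1β, 2 with LPS and 5 with PBS. Their summed intensity was 14946 with TNFα, 18496 with IL1β, 3452 with LPS and 11522 with PBS. LYZ, lysozyme, held much of these sums, and without it, a step chosen after its values were seen, they were 9346 with TNFα, 8106 with IL1β, 3243 with LPS and 4605 with PBS. With LPS against PBS 4 of the 6 leukocyte markers at the floor were lower (LYZ, TYROBP, ALOX5AP and CD68), against 7.42% of all genes. AIF1 was the 1 called higher (8.83%), 7.49-fold in its brighter probe set and 1.49-fold, which is not called, in its other set. The brighter AIF1 set was also higher with TNFα (6.45-fold) and IL1β (5.39-fold), and these 3 values share the PBS array. Of the leukocyte markers at the floor, 3 of 9 were higher with TNFα against PBS (3.37% of all genes) and 0 lower (3.4%). With IL1β 5 of 11 were higher (3.13%) and 0 lower (3.57%). Near background were 6 of the 19 with TNFα, 7 with IL1β, 12 with LPS and 7 with PBS. Among them, PTPRC, the pan-leukocyte marker, was near background with LPS and PBS but not with the cytokines, and ITGAM on all arrays. Of 12 heart muscle markers 8 were at the floor with TNFα, 9 with IL1β, 5 with LPS and 9 with PBS. Their summed intensity was 52327 with TNFα, 60046 with IL1β, 15312 with LPS and 39952 with PBS. With LPS against PBS 6 of the 9 heart markers at the floor were lower, against 7.42% of all genes, and 0 were higher (8.83%). With TNFα 1 of 9 was higher (3.37%) and 0 were lower (3.4%), and with IL1β 0 of 9 were called (6.7%). ACTC1, which was not called against PBS, held most of the LPS sum, with 21145 with TNFα, 28777 with IL1β, 12945 with LPS and 17961 with PBS. Of the 16 squamous markers, all at the floor, 3 were higher with LPS against PBS (KRT14 2.38-fold, KRT17 2.12-fold and TP63 2.79-fold), against 8.83% of all genes. Another 2 were lower (CDH1 4.26-fold and ITGA6 2.76-fold), against 7.42%. CDH1 and ITGA6 were also lower with TNFα (3.4% of all genes were) and with IL1β (3.57%). For each of these genes the differences share the PBS reading, which was its highest. Fibroblast and endothelial markers were mostly below the floor, at 0 to 2 of 9 and 0 to 1 of 8. The part of these transcripts in the sterol results was not tested.

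Calls among 30 other sterol genes were counted over those at the floor. With TNFα 3 of 22 were higher, against 3.37% of all genes, and 0 were lower, against 3.4%. With IL1β 0 of 21 were higher (3.13%) and 0 lower (3.57%). With LPS 2 of 22 were higher (8.83%) and 1 was lower (7.42%). CH25H, which makes an oxysterol that restrains SREBP, had 410.4 with TNFα, 347 with IL1β and 249 with LPS, against 178 with PBS. It was 2.31-fold higher with TNFα, and the order was TNFα, IL1β, LPS, PBS. MYLIP, a ubiquitin ligase induced by liver X receptors, had 280.3 with TNFα, 79.0 with IL1β and 79.2 with LPS, against 116 with PBS, so that only TNFα was above the floor, 2.41-fold higher than PBS. SULT2B1, a sterol sulfotransferase, was 2.54-fold higher with LPS in its brighter probe set and 1.05-fold higher in its other set. NCEH1, a cholesteryl ester hydrolase, was higher with LPS by a log2 difference of 1.32. VCP, an ATPase that extracts proteins from the endoplasmic reticulum, was 2.06-fold lower with LPS.

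Of 15 measured fatty acid genes that SREBPs also control, 10 were at the floor with LPS against PBS. Of these 3 were lower, against 7.42% of all genes, and 0 higher, against 8.83%. Their median log2 difference was -0.81 over all 15 and -0.25 over those at the floor. ACLY, which supplies cytosolic acetyl-CoA to both routes, had intensities of 7211 with TNFα, 8371 with IL1β and 3095 with LPS, against 7021 with PBS, so that LPS alone was low. ACLY was 2.27-fold lower, SCD, the stearoyl-CoA desaturase, 2.08-fold lower, and MID1IP1, an activator of acetyl-CoA carboxylase, 2.36-fold lower. FASN, fatty acid synthase, had a log2 difference of -0.43 with LPS. With TNFα 0 of 9 at the floor were higher (3.37% of all genes) and 0 lower (3.4%). With IL1β 1 of 9 was higher (3.13%) and 1 lower (3.57%). LPIN1, a phosphatidate phosphatase, was 2.62-fold higher with IL1β, and ME1, malic enzyme, 2.33-fold lower.

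**Figure D5:**
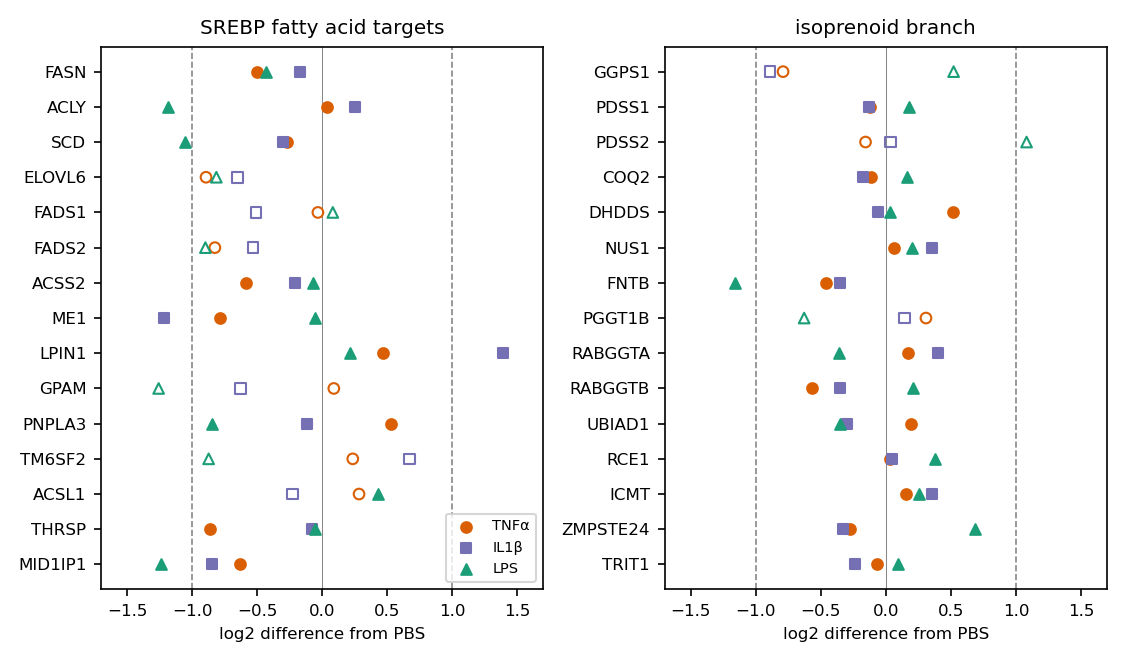
Log2 difference from PBS with TNFα, IL1β and LPS for 15 fatty acid genes controlled by SREBPs (left) and 15 genes of the isoprenoid branch (right), 1 array each. Open symbols are below the floor on both arrays compared, and dashed lines mark 2-fold. Filled LPS points for ACLY, SCD and MID1IP1 lie left of the lower line, as does the LPS point of FNTB.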

How the data were processed

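RNA from 4 cultures was labelled with Cy3 and hybridised to 1 one-colour NimbleGen array each, per the labels' protocols. The deposited values are linear RMA intensity, 1 value per probe set and usually from 3 probes, per the file headers and names; the sources used here give no software, settings or genome build. The series table the authors deposited held identical intensity for all 45033 probe sets. Accessions were matched without versions to RefSeq symbols (GRCh38.p14, names only), which named 18866 probe sets (41.9%) and 17185 genes. Where a gene had several probe sets, the one of highest mean log2 value stood for it. Differences are of log2 intensity between 2 arrays, with no test. The members, gene lists, motifs, alternatives and rule for named genes were chosen with earlier results of these data known. The rule writes out members called against PBS and 12 fixed members, and up to 6 called genes of each further list; some genes it selects are not reported here. Simulated data were used to test the size rule. They had less noise than the disagreement between probe sets of a gene, and changes only in genes well above the floor. They therefore do not show how the rule performs on these arrays or near the floor. The alternatives tried were 3-fold and 1.5-fold, dropping the floor or raising it to the 75th percentile, averaging probe sets, loess centring, repeated quantile normalization, an offset and the series table. Figures were drawn with matplotlib 3.10.9, loess was from statsmodels 0.14.6, and the rest used pandas 2.3.3 and numpy 2.4.6 under Python 3.11.15.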

Additional observations from a re-analysis of the deposited data

How the results depend on the processing

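With 1 array per condition no replicate can be left out. No paired analysis was possible because each condition has 1 array and the labels give no replicate numbers. The number of sterol genes called depended on the floor and the fold. The share of all genes called by the same rule is given in brackets. Without a floor, TNFα minus PBS gave 2 (7.86%) and IL1β minus PBS gave 3 (8.08%), ABCG1 being added in each and ABCA1 with IL1β, and LPS minus IL1β gave 9 (17.7%), SC5D and ABCA1 being added. With the floor at the 75th percentile there were 0 for TNFα minus PBS (4.27%), 0 for IL1β minus PBS (4.28%), 2 for LPS minus PBS (13.5%; NPC2 and LSS), 5 for LPS minus TNFα (13.9%) and 3 for LPS minus IL1β (14.8%). At 1.5-fold there were 5 for TNFα minus PBS (21.2%), 4 for IL1β minus PBS (21.4%), 15 for LPS minus PBS (38.6%), 13 for LPS minus TNFα (40.3%), 12 for LPS minus IL1β (42%) and 1 for TNFα minus IL1β (12.8%; SREBF2). At 3-fold there were 3 for LPS minus PBS (5.2%; ABCG1, LSS and INSIG1), 2 for LPS minus TNFα (4.69%) and 2 for LPS minus IL1β (5.33%). At the raised floor (9.56 on the log2 scale), HMGCS1, INSIG1, MSMO1 and ABCG1 lay under it with LPS and PBS and lost that call. The number of members admitted also changes with the floor and is not given for these alternatives. Loess centring, repeated quantile normalization, the mean of probe sets and the series table gave the same counts as reported. The offset lost HMGCS1 against PBS and MSMO1 against TNFα. No called difference of a named member changed sign. Of 810 recomputed differences of 15 members, 766 kept their side of the size rule, 25 lost the call and 19 gained it. Most of these could not change sign. Changing the floor or fold leaves a difference as it was, the series table was identical, and an offset cannot reverse a sign. Averaging probe sets could alter only LSS. For the other members, signs could change only with loess centring and repeated quantile normalization. MSMO1, SC5D and ABCG1 were at the floor on 1 array only.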

Other observations

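Of 15 measured genes of the isoprenoid branch, which leaves the sterol route after mevalonate activation, 12 reached the floor in each comparison with PBS. With TNFα 0 of 12 were called, against 6.76% of all genes at the floor, and with IL1β 0 of 12, against 6.7%. With LPS 0 of 12 were higher (8.83%) and 1 was lower (7.42%). That gene was FNTB, the β subunit of protein farnesyltransferase, with intensities of 230 with TNFα, 248 with IL1β and 141 with LPS, against 315 with PBS. The LPS array was the low one, 2.23-fold under PBS, and PBS alone was above the floor. ZMPSTE24, a protease that trims farnesylated prelamin A, had 483 with TNFα, 464 with IL1β, 937 with LPS and 583 with PBS, highest with LPS and 2.02-fold higher than with IL1β. PDSS1 and COQ2, which build the ubiquinone tail and attach it, had log2 differences from PBS between -0.18 and 0.18 with every stimulus.

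Among genes that act on SREBP proteins, ERLIN1, ERLIN2 and MBTPS1 were not called in a comparison with PBS. ERLIN1, a membrane protein that restrains SREBP release, had log2 differences from PBS of 0.04 with TNFα, -0.14 with IL1β and 0.05 with LPS. ERLIN2, its partner, had 0.51 with LPS in its brightest probe set and -0.86 and -0.70 in its other sets, so that its sets disagreed in direction. MBTPS1, the protease that makes the first SREBP cut, had -0.38 with TNFα, -0.30 with IL1β and -0.21 with LPS. These 3 genes and PDSS1, COQ2 and ZMPSTE24 were picked after their values were seen.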
